A study of Mus musculus with 6 samples.

Results

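The 37 genes described here are interferon-stimulated genes, the genes that cells switch on when an interferon binds its receptor. They were taken by symbol from the 47069 genes with an Ensembl gene ID that both deposited tables share, and all 37 were found. They comprise 17 antiviral effectors, 3 sensors of viral RNA, 4 transcription factors of the response, the 3 genes Parp9, Parp14 and Dtx3l, 7 GTPases of cell-autonomous immunity, and 3 genes of antigen processing. The question asked of them was whether the GTPases, which interferon gamma is known to induce, and the antiviral genes, which type I interferon is known to induce, stood differently in regulatory T cells of the 2 genotypes.

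Regulatory T cells are the CD4 T cells that express the transcription factor Foxp3 and restrain immune responses. They were sorted from mouse lymph node and spleen as CD4+GFP+CD62Lhigh cells and then activated in culture with Dynabeads. The Het group came from Foxp3CreNoc4l+/fl mice, and the cKO group (conditional knockout) from Foxp3CreNoc4lfl/fl mice. Both groups thus carried the Foxp3-driven Cre, which acts in cells that express Foxp3, and at least 1 floxed Noc4l allele, and no library without Cre was among those analysed here. The age of the mice is not given in the sources used here. Each genotype had 1 library at 48 h (Het 1 and cKO 2) and 2 at 72 h (Het 1 and cKO 2, then Het 3 and cKO 4). Expression was deposited as FPKM (fragments counted per kilobase of a gene and per size of its library). Libraries 1 and 2 of both times stand in 1 table, and Het 3 and cKO 4 in another. Genotypes were therefore compared within a table, and levels set across the tables may also reflect their separate scaling. Nothing in the labels says that the libraries came from separate animals, so p-values measure only the spread between these libraries, which may be technical.

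Noc4l, the targeted gene, went against the labels. At 48 h its level was 99.1 FPKM in the Het and 124 in the cKO library, and at 72 h 48.8 in Het 1, 81.7 in cKO 2, 40.8 in Het 3 and 58.1 in cKO 4. The tables hold 1 value per gene, so the floxed exons could not be read separately, and every direction below is that of the libraries as labelled. Estimated depth was 16.5 to 28.8 M fragments per library. Defining markers of regulatory T cells were present throughout, and Foxp3 ran from 147 to 336 FPKM. The 48 h cKO library and cKO 2 at 72 h stood apart in transcripts of other cells, with the neutrophil gene S100a8 at 81.2 and 75.9 FPKM against at most 0.194 elsewhere, so values by library, or the log2 ratio of Het 3 and cKO 4 alone, stand beside the 72 h differences below.

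Type I interferons signal through the IFNAR receptor to a complex that includes STAT2 and IRF9 and binds the interferon-stimulated response element (ISRE) in promoters. Interferon gamma signals through the IFNGR receptor to the gamma-activated site (GAS) in promoters, and it induces the transcription factor IRF1, which binds elements close to the ISRE. The routes overlap, and many genes answer to both. The immunity-related GTPases (Irgm1, Irgm2, Igtp, Iigp1) and the guanylate-binding proteins (Gbp2, Gbp3, Gbp7) act on the vacuoles of intracellular pathogens. In regulatory T cells, interferon gamma signalling is known to accompany a Th1-like state marked by T-bet.

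Promoter sequences show where these 2 elements lie in the genes compared. The sequence around the transcription start was read from RefSeq (build GRCm38.p6), whose windows of 300 bases run from 250 before to 50 after the start. A window was held for 28 of the 37 genes, 33 windows in all, and not for Mx1, Oas2, Usp18, Rtp4, Zbp1, Dhx58, Parp9, Parp14 and Iigp1. The 140 bases before the start are printed 5′ to 3′ for 11 genes, 6 GTPases, the transcription factor Irf1 and 4 antiviral effectors. Capitals mark each match to the ISRE core, GAAANNGAAA on either strand, or to the GAS, TTCNNNGAA, which is its own reverse complement, and overlapping matches run together. The first 3 belong to the immunity-related GTPases Irgm1 (chr11:48871421-48871560, minus strand), Irgm2 (chr11:58214837-58214976, plus strand) and Igtp (chr11:58199416-58199555, plus strand).
Irgm1: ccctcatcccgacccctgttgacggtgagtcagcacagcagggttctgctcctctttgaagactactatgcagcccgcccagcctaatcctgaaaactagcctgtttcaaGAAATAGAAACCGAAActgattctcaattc
Irgm2: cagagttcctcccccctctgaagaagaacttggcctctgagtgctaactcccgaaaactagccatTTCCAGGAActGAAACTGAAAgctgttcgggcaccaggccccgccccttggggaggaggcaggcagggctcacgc
Igtp: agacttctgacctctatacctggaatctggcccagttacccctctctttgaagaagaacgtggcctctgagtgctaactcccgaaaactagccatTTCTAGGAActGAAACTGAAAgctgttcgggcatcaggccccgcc
The next 3 belong to the guanylate-binding proteins Gbp2 (chr3:142620523-142620662), Gbp3 (chr3:142559904-142560043, the first of its 2 windows) and Gbp7 (chr3:142530196-142530335), all on the plus strand.
Gbp2: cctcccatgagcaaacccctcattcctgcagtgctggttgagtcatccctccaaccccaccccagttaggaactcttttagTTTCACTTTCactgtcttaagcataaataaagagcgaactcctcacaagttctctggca
Gbp3: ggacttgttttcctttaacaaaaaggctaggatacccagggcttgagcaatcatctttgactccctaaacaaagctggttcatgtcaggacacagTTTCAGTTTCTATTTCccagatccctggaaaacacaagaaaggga
Gbp7: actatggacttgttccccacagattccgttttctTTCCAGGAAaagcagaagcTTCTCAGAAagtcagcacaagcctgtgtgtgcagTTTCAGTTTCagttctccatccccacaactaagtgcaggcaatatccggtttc
Irf1 (chr11:53769874-53770013, plus strand, the first of its 2 windows) is shown for its GAS, and Isg15 (chr4:156200819-156200958, minus strand) and Ifit1 (chr19:34640749-34640888, plus strand) for their repeated ISRE cores.
Irf1: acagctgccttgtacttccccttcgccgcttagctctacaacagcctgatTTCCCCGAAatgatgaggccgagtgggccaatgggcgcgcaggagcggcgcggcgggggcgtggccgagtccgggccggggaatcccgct
Isg15: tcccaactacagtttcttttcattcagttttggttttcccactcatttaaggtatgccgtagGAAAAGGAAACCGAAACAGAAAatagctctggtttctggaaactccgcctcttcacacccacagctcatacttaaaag
Ifit1: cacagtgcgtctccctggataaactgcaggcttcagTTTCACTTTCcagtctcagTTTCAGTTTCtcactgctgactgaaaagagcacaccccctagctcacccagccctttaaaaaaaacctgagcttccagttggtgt
Bst2 (chr8:71537473-71537612, minus strand) carries both elements, and Ifitm1 (chr7:140967936-140968075, plus strand) carries neither.
Bst2: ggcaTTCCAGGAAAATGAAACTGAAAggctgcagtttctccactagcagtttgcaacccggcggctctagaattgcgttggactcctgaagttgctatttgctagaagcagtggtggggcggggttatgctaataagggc
Ifitm1: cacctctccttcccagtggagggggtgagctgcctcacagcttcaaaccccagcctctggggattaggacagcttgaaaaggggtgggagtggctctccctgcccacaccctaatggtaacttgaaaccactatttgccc

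An ISRE core was found in 3.44% and a GAS in 8.30% of all 32851 RefSeq windows of this length, and both in 0.454%. Counted by gene, the shares were 3.99%, 9.55% and 0.540% of 27025 genes. Among the 28 genes with a window, 16 held an ISRE core, 10 a GAS, 6 both and 8 neither. All 6 GTPases with a window held an ISRE core, and Irgm2, Igtp and Gbp7 also held a GAS. In Irgm2 and in Igtp the GAS comes first, and 2 bases separate it from the ISRE core. These neighbouring genes share a run of 38 identical bases that begins before the GAS and ends within it. Of the 12 antiviral effectors with a window, 7 held an ISRE core and 5 a GAS. In Bst2 the GAS overlaps the first ISRE core by 3 bases. Ifit1 holds 2 ISRE cores and no GAS, and Isg15 holds 3 overlapping ones. The GAS of Irf1 begins 90 bases before the start. The matches of Ifitm3, outside the stretch printed here, all lie after its start. A match describes letters in the window and shows neither binding nor its absence.

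**Figure D1:**
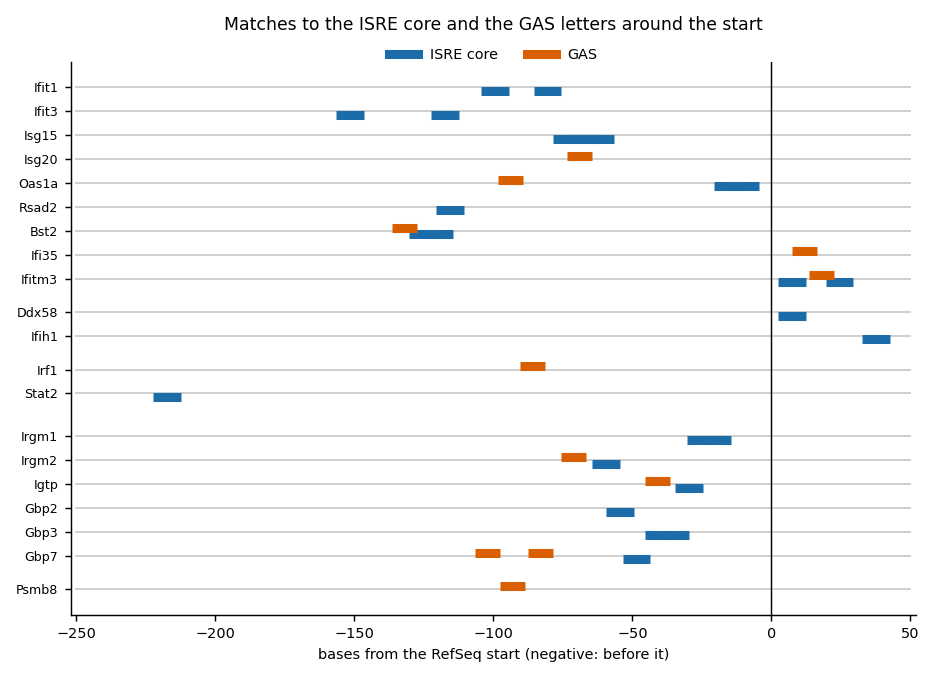
Positions of ISRE core matches (blue) and GAS matches (orange) in the 20 genes with a match, on an axis of bases from the RefSeq start, where negative values lie before it. The GTPases hold their ISRE cores within 64 bases before the start, while those of Ifitm3, Ddx58 and Ifih1 lie after it.

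At 72 h most of the 37 genes were higher in the libraries labelled cKO, while Ifitm1 and Ifitm3 were lower, and no single gene passed the test. Iigp1, Irgm1 and Irf1 were at least 2-fold higher, on log2(FPKM + 1), in both pairs. The genotype at 72 h was fitted with limma to log2(FPKM + 1) over 2 libraries per genotype, with the table as a term. The 31 genes that averaged 1 FPKM or more were tested among 12488. A gene passed at a Benjamini-Hochberg adjusted p under 0.05, and each adjusted p below is limma's, over all genes tested. None of the 31 passed, and 0% of all genes did in either direction (percentages of genes called are over all genes tested). At an unadjusted p under 0.05, 20 of the 31 were higher, against 10.3% of all genes, and 2 were lower, against 6.99%. The smallest adjusted p among them was 0.109. By direction alone 27 of 31 were higher, with a median log2 difference of 0.54, while 61.0% of all genes tested were higher, with a median of 0.08. After median centring, 48.2% of all genes and 26 of the 31 were higher.

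Of all 37 genes, 28 were higher in both 72 h pairs, against 42.4% of genes tested. Ddx58, Ifitm1 and Ifitm3 were lower in both, against 24.6%. Ifit3, Isg15, Isg20, Oas2, Oasl2 and Dhx58 differed in sign between the pairs. The genes at least 2-fold higher in both pairs were 3 of 37, against 1.67% of genes tested, and the 1 gene at least 2-fold lower in both, Ifitm3, stood against 0.785%. The size of the log2 ratio, whatever its sign, was larger in the pair of replicates 1 and 2 for 27 of the 37. The share of all genes for which this held was not computed. The median log2 ratio over all 37 was 0.59 in the first pair and 0.36 in the other, against 0.06 and 0.08 for all genes tested. The genes under 1 FPKM on average were Ifit1, Mx1, Oas2, Oasl1, Oasl2 and Rsad2, all antiviral effectors, and Ifit3 passed the filter through cKO 2 alone.

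**Figure D2:**
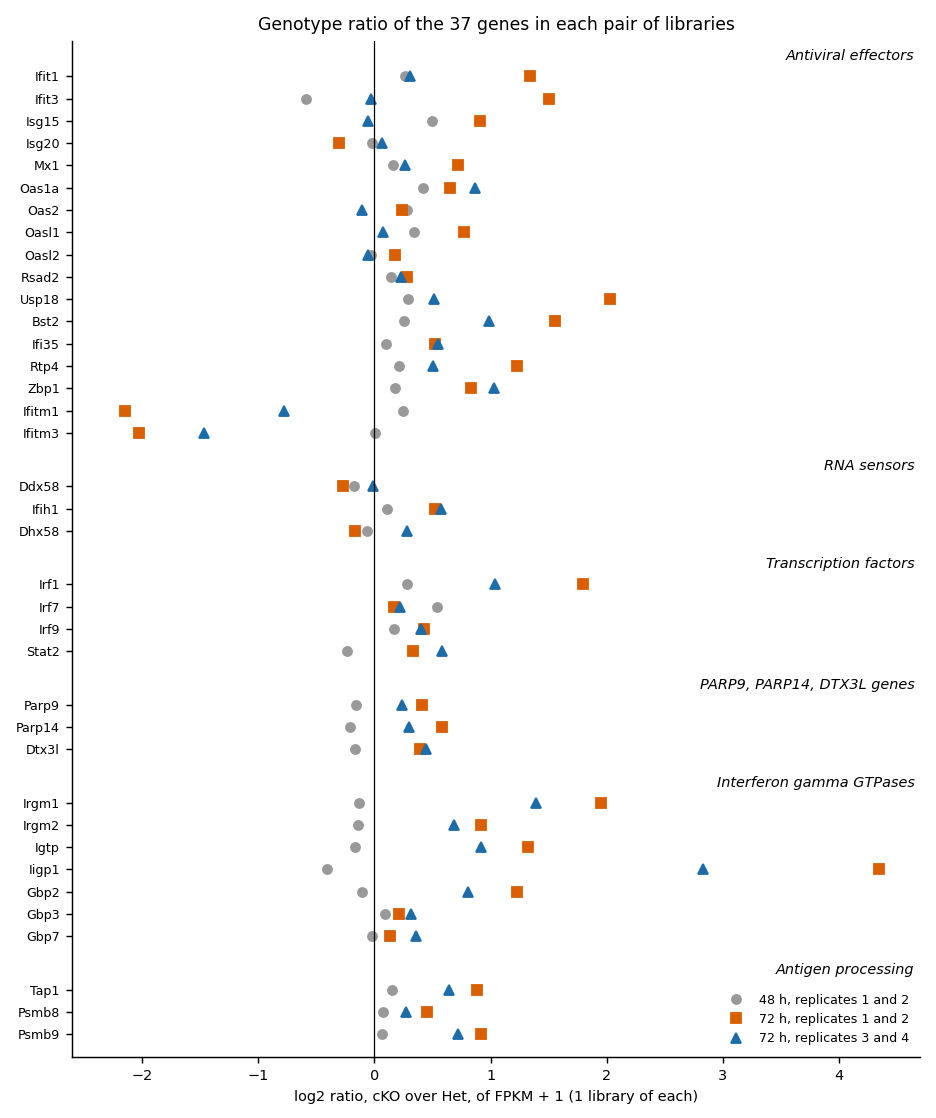
Log2 ratio of FPKM + 1, cKO over Het, for each of the 37 genes in the 48 h pair (grey circles), the 72 h pair of replicates 1 and 2 (orange squares) and the 72 h pair of replicates 3 and 4 (blue triangles); each point is 1 library of each genotype. The GTPases lie near 0 or below it at 48 h and right of 0 in both 72 h pairs, while Ifitm1 and Ifitm3 lie left of 0 in both.

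Ifng, which encodes interferon gamma and is not among the 37 genes, was low in every library except the libraries labelled cKO at 72 h. It stood at 0.605 FPKM in the Het and 0.809 in the cKO library at 48 h, and at 72 h at 0.277 in Het 1, 9.68 in cKO 2, 0.647 in Het 3 and 7.60 in cKO 4. Both 72 h cKO values were above the other 4, and Ifng passed the filter on low values only through these 2 libraries. The 72 h Het values correspond to only about 5 fragments in Het 1 and 12 in Het 3. The log2 difference at 72 h was 2.72 ± 0.26 (SE, adjusted p = 0.106). The type I genes Ifnb1, Ifna1, Ifna2 and Ifna4 and the type III gene Ifnl2 were listed at 0 in all 6 libraries.

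Among the receptor genes, Ifngr1 had the lowest difference. Ifngr1, the ligand-binding chain for interferon gamma, was 559.7 in Het 1, 254 in cKO 2, 1000.2 in Het 3 and 895 in cKO 4 FPKM at 72 h, and its log2 difference was -0.65 ± 0.28 (SE, adjusted p = 0.333), or -1.14 in the first pair and -0.16 in the other. Ifngr2, its partner chain, stood at 0.09 ± 0.13 (adjusted p = 0.721). The type I receptor chains Ifnar1 and Ifnar2 stood at -0.23 ± 0.14 and -0.20 ± 0.13 (adjusted p = 0.435 and 0.463). In the pair of Het 3 and cKO 4 alone, Ifngr2, Ifnar1 and Ifnar2 stood at 0.06, -0.36 and -0.26. Over the 13 ligand and receptor genes, 6 were tested and none passed. By direction 2 were higher and 4 lower, while 61.0% of all genes tested were higher, and their median was -0.15 beside 0.08 for all genes.

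The signalling genes differed among themselves at 72 h. The kinases Jak1 and Jak2, which the receptors activate, stood at -0.17 ± 0.12 and 0.33 ± 0.13 (adjusted p = 0.504 and 0.317), and Socs1, which inhibits them, at 0.35 ± 0.13 (adjusted p = 0.294). Socs3, another inhibitor, was lower in both pairs, at -1.16 ± 0.20 (SE, adjusted p = 0.152). Irf8, a transcription factor of myeloid and lymphoid cells, stood at 2.05 ± 0.23 (SE, adjusted p = 0.112), and the kinase Ikbke at 0.69 ± 0.12 (SE, adjusted p = 0.152). In the pair of Het 3 and cKO 4 alone, Irf8 stood at 1.66, Socs3 at -0.84, Ikbke at 0.67, Jak1 at -0.18, Jak2 at 0.25 and Socs1 at 0.26. None of the 22 tested signalling genes passed. By direction 17 were higher and 5 lower, while 61.0% of all genes tested were higher, and their median was 0.26 beside 0.08 for all genes. At an unadjusted p under 0.05, 4 were higher, against 10.3% of all genes, and 1 was lower, against 6.99%. Ciita, counted as higher by direction, passed the filter on low values only through cKO 2. It was 0.355 in Het 1, 3.36 in cKO 2, 0.172 in Het 3 and 0.648 in cKO 4 FPKM at 72 h.

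Irf1 (ENSMUSG00000018899), the transcription factor that interferon gamma induces, was the highest of the 4 transcription factors in every library. It was 97.0 FPKM in the Het and 118 in the cKO library at 48 h. At 72 h it was 67.7 in Het 1, 237 in cKO 2, 123 in Het 3 and 252 in cKO 4. Both 72 h cKO values were above the other 4 libraries, and at 48 h the genotypes were closer, with a ratio of 1.21. The log2 difference at 72 h was 1.41 ± 0.23 (SE, adjusted p = 0.141). Irf9, the DNA-binding part of the type I complex, was 27.8 in Het 1, 37.8 in cKO 2, 42.1 in Het 3 and 55.8 in cKO 4 FPKM, and Stat2, its partner, was 18.9 in Het 1, 24.0 in cKO 2, 25.2 in Het 3 and 38.2 in cKO 4. Within each table both genes were higher in cKO, but Het 3 exceeded cKO 2 for each, so the groups overlapped across tables. Their log2 differences were 0.41 ± 0.12 (SE, adjusted p = 0.242) and 0.45 ± 0.14 (SE, adjusted p = 0.253). Irf7, the transcription factor that amplifies type I interferon, was 11.7 in Het 1, 13.3 in cKO 2, 11.9 in Het 3 and 14.1 in cKO 4, with a log2 difference of 0.19 ± 0.13 (SE, adjusted p = 0.491). It was the transcription factor with the smallest difference at 72 h and the largest at 48 h, where it stood at 7.47 in Het and 11.3 in cKO.

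The GTPases Iigp1 and Irgm1 held the 2 highest positive differences of the 37 genes, and all 7 GTPases were higher in cKO in both 72 h pairs. Iigp1 (ENSMUSG00000054072), an effector immunity-related GTPase that loads onto pathogen vacuoles, was 11.7 FPKM in the Het and 8.51 in the cKO library at 48 h. At 72 h it was 3.34 in Het 1, 87.0 in cKO 2, 12.8 in Het 3 and 97.4 in cKO 4. The 2 libraries labelled cKO at 72 h stood 26.0-fold and 7.60-fold above the Het library of their own table, and above all other libraries, and Het 1 at 72 h was the lowest of the 6. The log2 difference was 3.59 ± 0.40 (SE, adjusted p = 0.112), or 4.34 in the first pair and 2.83 in the other.

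Irgm1 (ENSMUSG00000046879), Irgm2 (ENSMUSG00000069874) and Igtp (ENSMUSG00000078853) are the regulatory members of the same family, which keep the effector GTPases off the cell's own membranes. Irgm1 was 15.7 FPKM in the Het and 14.3 in the cKO library at 48 h, and at 72 h 10.8 in Het 1, 44.6 in cKO 2, 18.5 in Het 3 and 50.2 in cKO 4. Igtp was 99.9 FPKM in the Het and 88.6 in the cKO library at 48 h, and at 72 h 89.2 in Het 1, 224 in cKO 2, 138 in Het 3 and 262 in cKO 4. Irgm2, its chromosomal neighbour, was 12.2 FPKM in the Het and 10.96 in the cKO library at 48 h, and at 72 h 13.9 in Het 1, 27.0 in cKO 2, 23.7 in Het 3 and 38.9 in cKO 4. Both 72 h cKO libraries were the highest of the 6 for each of these genes, and Het 1 at 72 h was the lowest for Irgm1, while for Igtp and Irgm2 the 48 h cKO library was. The log2 difference was 1.67 ± 0.19 (SE, adjusted p = 0.112) for Irgm1, 1.12 ± 0.16 (SE, adjusted p = 0.122) for Igtp and 0.80 ± 0.14 (SE, adjusted p = 0.150) for Irgm2. For Het 3 and cKO 4 alone, Irgm1 stood at 1.39, Igtp at 0.92 and Irgm2 at 0.69. Irgm2 and Igtp, which share the run of promoter sequence printed above, both stood above the median of all genes, and Igtp was the more abundant in every library.

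The guanylate-binding proteins differed among themselves. Gbp2 (ENSMUSG00000028270) was 32.3 FPKM in the Het and 30.0 in the cKO library at 48 h, and at 72 h 51.6 in Het 1, 123 in cKO 2, 100.2 in Het 3 and 176 in cKO 4. Gbp3 (ENSMUSG00000028268) was 33.8 FPKM in the Het and 36.2 in the cKO library at 48 h, and at 72 h 51.6 in Het 1, 59.8 in cKO 2, 125 in Het 3 and 156 in cKO 4. Gbp7 (ENSMUSG00000040253) was 16.3 FPKM in the Het and 16.0 in the cKO library at 48 h, and at 72 h 34.1 in Het 1, 37.4 in cKO 2, 71.5 in Het 3 and 92.1 in cKO 4. Gbp2 was highest in the 2 libraries labelled cKO at 72 h. For Gbp3 and Gbp7 the highest values were in Het 3 and cKO 4, so the tables differed more than the genotypes and the groups overlapped. The log2 difference at 72 h was 1.02 ± 0.16 (SE, adjusted p = 0.139) for Gbp2, 0.26 ± 0.12 (SE, adjusted p = 0.362) for Gbp3 and 0.25 ± 0.13 (SE, adjusted p = 0.414) for Gbp7. The Gbp genes are close copies of each other, and how reads shared between copies were counted is not given in the sources used here.

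**Figure D3:**
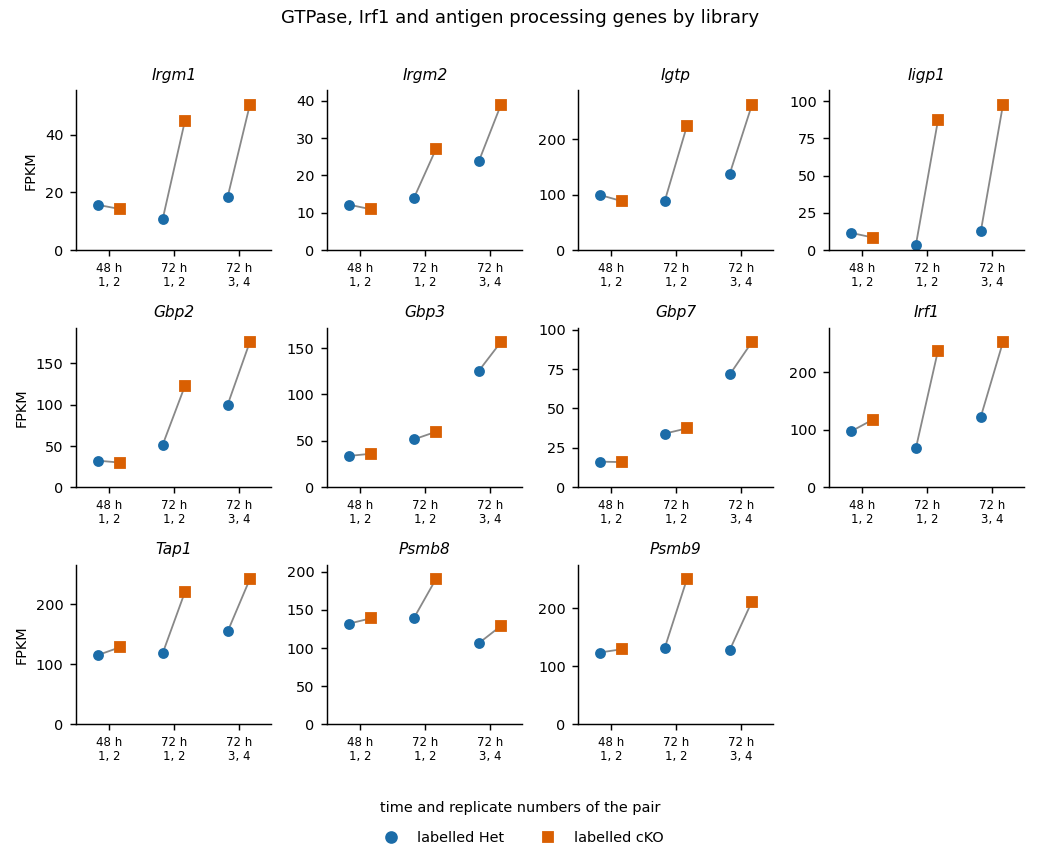
FPKM in each library of the 7 GTPases, Irf1 and the 3 antigen processing genes, with Het as blue circles and cKO as orange squares, 1 line per pair of libraries and each vertical axis starting at 0. Iigp1 and Irgm1 have nearly flat lines at 48 h and steep ones in both 72 h pairs, while Gbp3 and Gbp7 mostly separate the tables.

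GTPases outside the 37 genes were mostly higher too. Of 12 tested, 10 were higher and 2 lower by direction, while 61.0% of all genes tested were higher. Their median was 0.97 beside 0.08 for all genes, and none passed. At an unadjusted p under 0.05, 9 were higher, against 10.3% of all genes, and 1 was lower, against 6.99%. Gbp10, counted as higher, passed the filter on low values only through the cKO libraries. It was 0.0452 in Het 1, 4.99 in cKO 2, 0.253 in Het 3 and 2.64 in cKO 4 FPKM at 72 h. Gbp11 fell under the filter and was not tested, and it was lower in cKO in both 72 h pairs. Gbp5 stood at 1.09 ± 0.15 (SE, adjusted p = 0.122), Gm12250 (Irgb10) at 1.35 ± 0.22 (SE, adjusted p = 0.142), and the T cell GTPases Tgtp2 and Tgtp1, near-identical copies, at 1.24 ± 0.23 and 1.09 ± 0.23 (adjusted p = 0.159 and 0.179). In the pair of Het 3 and cKO 4 alone, Gbp5 stood at 0.91, Gm12250 at 0.99, Tgtp2 at 0.85 and Tgtp1 at 0.72, and the median of the 12 was 0.62. Gbp2b, the gene between Gbp3 and Gbp2 on the chromosome, went the other way at -1.09 ± 0.25 (SE, adjusted p = 0.202). Its values were 4.87 in Het 1, 1.098 in cKO 2, 13.5 in Het 3 and 7.99 in cKO 4 FPKM at 72 h. Gbp2b was singled out after its values were seen.

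The 3 antigen processing genes were among the most abundant of the 37, and all were higher in cKO in both 72 h pairs. Tap1 (ENSMUSG00000037321), which carries peptides into the endoplasmic reticulum, was 115 FPKM in the Het and 128 in the cKO library at 48 h, and at 72 h 119 in Het 1, 219.9 in cKO 2, 155 in Het 3 and 242 in cKO 4. Psmb9 (ENSMUSG00000096727), an immunoproteasome subunit, was 124 FPKM in the Het and 129 in the cKO library at 48 h, and at 72 h 132 in Het 1, 249.5 in cKO 2, 128 in Het 3 and 211 in cKO 4. Both genes were highest in the 2 libraries labelled cKO at 72 h. Their windows overlap by 275 bases on opposite strands, so they hold mostly the same bases, and neither holds an element searched here. The log2 difference was 0.76 ± 0.13 (SE, adjusted p = 0.154) for Tap1 and 0.82 ± 0.13 (SE, adjusted p = 0.139) for Psmb9. Psmb8 (ENSMUSG00000024338), another immunoproteasome subunit, was 139 in Het 1, 190.4 in cKO 2, 106 in Het 3 and 129 in cKO 4 at 72 h, and 132 and 139 at 48 h. Het 1 exceeded cKO 4, so its groups overlapped across tables, and its log2 difference was 0.36 ± 0.13 (SE, adjusted p = 0.286). All 13 other antigen processing genes tested were higher by direction, against 61.0% of all genes, with a median of 0.61. At an unadjusted p under 0.05, 11 of them were higher, against 10.3% of all genes, and none passed the adjusted threshold. The class I light chain B2m stood at 0.94 ± 0.14 (SE, adjusted p = 0.129) and the loading factor Tapbp at 0.80 ± 0.14 (SE, adjusted p = 0.155). The class I genes H2-Q6 and H2-Q4, close copies within a family, stood at 0.80 ± 0.15 and 0.61 ± 0.13 (adjusted p = 0.164 and 0.179). In the pair of Het 3 and cKO 4 alone, B2m stood at 0.80, Tapbp at 0.65, H2-Q6 at 0.61 and H2-Q4 at 0.52, and the median of the 13 was 0.43.

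The antiviral effectors had no common direction at 72 h. Of the 11 tested, Bst2, Zbp1, Ifi35, Usp18, Rtp4 and Oas1a were higher in cKO in both pairs, Ifitm1 and Ifitm3 were lower in both, and Ifit3, Isg15 and Isg20 differed in sign between the pairs. Bst2 (ENSMUSG00000046718), also called tetherin, which holds budding virus at the cell surface, was 66.8 FPKM in the Het and 79.8 in the cKO library at 48 h. At 72 h it was 33.8 in Het 1, 101 in cKO 2, 33.1 in Het 3 and 66.6 in cKO 4. Het libraries at 72 h were the lowest of the 6 and cKO 2 the highest, while cKO 4 stood level with the 48 h Het library. The log2 difference was 1.27 ± 0.19 (SE, adjusted p = 0.129). Zbp1, a sensor of Z-form nucleic acid that can start cell death, was 14.6 FPKM in the Het and 16.7 in the cKO library at 48 h, and at 72 h 25.4 in Het 1, 46.0 in cKO 2, 36.9 in Het 3 and 76.4 in cKO 4, and its log2 difference was 0.93 ± 0.13 (SE, adjusted p = 0.123). Ifi35 was 29.9 FPKM in the Het and 32.2 in the cKO library at 48 h, and at 72 h 28.7 in Het 1, 41.7 in cKO 2, 28.4 in Het 3 and 42.0 in cKO 4. Its 2 Het values at 72 h lay below both cKO values, with a log2 difference of 0.54 ± 0.12 (SE, adjusted p = 0.198). Isg20, an exonuclease, was 39.4 in Het 1, 31.6 in cKO 2, 33.3 in Het 3 and 35.0 in cKO 4 at 72 h, against 12.1 and 11.95 at 48 h. Its 72 h values all lay above its 48 h values, and its log2 difference between genotypes was -0.12 ± 0.16 (SE, adjusted p = 0.714).

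Most textbook type I genes were scarce, and in several of them cKO 2 alone stood apart. Ifit1, which binds viral RNA caps, was 0.641 FPKM in the Het and 0.969 in the cKO library at 48 h, and at 72 h 0.234 in Het 1, 2.13 in cKO 2, 0.418 in Het 3 and 0.755 in cKO 4. The 72 h values correspond to 13 fragments in Het 1, 135 in cKO 2, 27 in Het 3 and 33 in cKO 4, with 95% Poisson intervals of 0.125 to 0.400, 1.78 to 2.52, 0.275 to 0.608 and 0.520 to 1.06 FPKM that cover counting error only. Thus cKO 2 stood above the rest, and the intervals of Het 3 and cKO 4 overlapped. Ifit3 was 0.411 in Het 1, 3 in cKO 2, 0.448 in Het 3 and 0.418 in cKO 4 at 72 h, and its near copy Ifit3b may share its reads. Isg15, the ubiquitin-like modifier, was 3.16 in Het 1, 6.81 in cKO 2, 3.37 in Het 3 and 3.22 in cKO 4. For both genes cKO 2 was the highest library and cKO 4 lay slightly under Het 3. Usp18, the protease that removes Isg15 from proteins, was 3.78 in Het 1, 18.5 in cKO 2, 9.57 in Het 3 and 14.1 in cKO 4, and Rtp4 was 2.22 in Het 1, 6.52 in cKO 2, 3.56 in Het 3 and 5.45 in cKO 4. Both were higher in cKO in each pair, at log2 differences of 1.27 ± 0.41 (SE, adjusted p = 0.263) and 0.86 ± 0.25 (SE, adjusted p = 0.237). Oas1a, which activates RNase L, was 0.684 in Het 1, 1.64 in cKO 2, 1.75 in Het 3 and 3.998 in cKO 4. The remaining effectors Mx1, Oas2, Oasl1, Oasl2 and Rsad2 stayed under 1 FPKM in all 6 libraries. The genes of this paragraph fall outside the rule for named genes and were named after their values were seen.

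Ifitm1 and Ifitm3, membrane proteins that block viral entry, were the clearest exceptions. Ifitm3 (ENSMUSG00000025492) was 12.4 FPKM in the Het and 12.4 in the cKO library at 48 h, and at 72 h 129.9 in Het 1, 31.1 in cKO 2, 102 in Het 3 and 36.3 in cKO 4. Ifitm1 (ENSMUSG00000025491) was 2.11 FPKM in the Het and 2.69 in the cKO library at 48 h, and at 72 h 136 in Het 1, 29.9 in cKO 2, 63.5 in Het 3 and 36.6 in cKO 4. Both genes were nearly level between genotypes at 48 h, higher in all 72 h libraries, and highest in the 2 Het libraries at 72 h. The log2 difference was -1.75 ± 0.19 (SE, adjusted p = 0.109) for Ifitm3 and -1.46 ± 0.37 (SE, adjusted p = 0.212) for Ifitm1, which was -2.15 in the first pair and -0.78 in the other. Ifitm2, which neighbours Ifitm1 on the chromosome and is not among the 37 genes, was 52.3 FPKM in the Het and 52.6 in the cKO library at 48 h, and at 72 h 383 in Het 1, 63.8 in cKO 2, 278 in Het 3 and 91.2 in cKO 4. Its log2 difference was -2.08 ± 0.27 (SE, adjusted p = 0.121), so the 3 adjacent genes were lower together in cKO in both pairs. They are similar in sequence, and reads may be split between them.

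**Figure D4:**
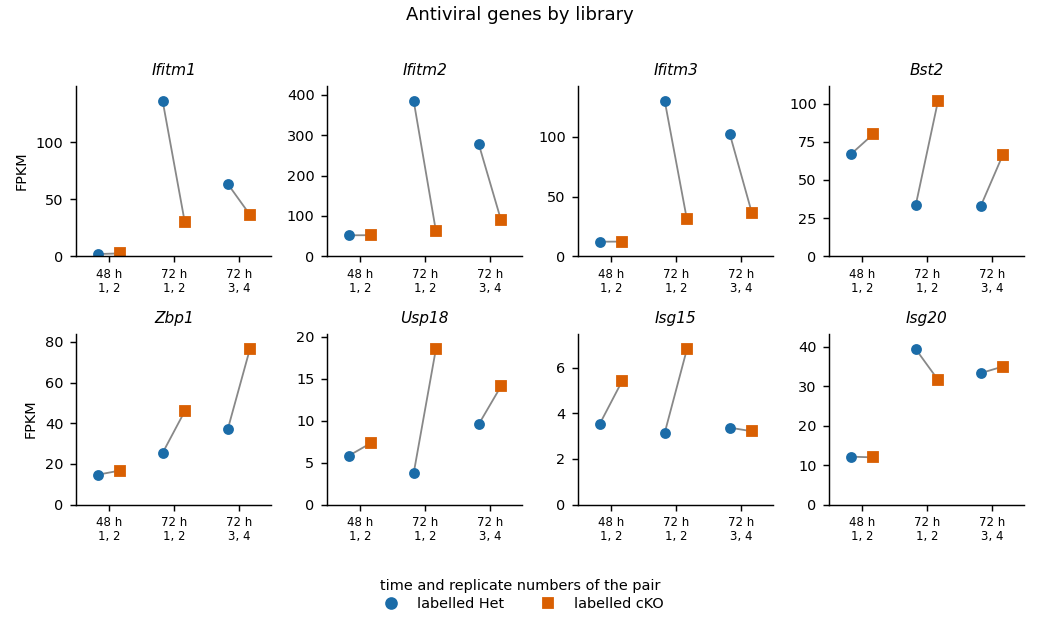
FPKM in each library of Ifitm1, Ifitm2, Ifitm3, Bst2, Zbp1, Usp18, Isg15 and Isg20, with Het as blue circles and cKO as orange squares, 1 line per pair of libraries and each vertical axis starting at 0. The Ifitm lines are nearly flat at 48 h and slope down to cKO in both 72 h pairs, while those of Bst2, Zbp1 and Usp18 slope up.

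Antiviral genes outside the 37 were mixed, and none of 29 tested passed. By direction 16 were higher and 13 lower, while 61.0% of all genes tested were higher, and their median was 0.09 beside 0.08 for all genes. At an unadjusted p under 0.05, 5 were higher, against 10.3% of all genes, and 3 lower, against 6.99%. The ubiquitin ligases Trim30a and Trim21 stood at 0.70 ± 0.12 (SE, adjusted p = 0.152) and 0.65 ± 0.13 (SE, adjusted p = 0.176), and Slfn1, a growth regulator of T cells, at -0.76 ± 0.13 (SE, adjusted p = 0.145). Adar, an RNA-editing enzyme, Eif2ak2, a kinase that halts translation, and Oas3 stood at 0.30 ± 0.12, 0.13 ± 0.13 and -0.22 ± 0.15, and these 3 were named after their values were seen. In the pair of Het 3 and cKO 4 alone, Trim30a stood at 0.67, Trim21 at 0.62, Slfn1 at -0.76, Adar at 0.31, Eif2ak2 at 0.10 and Oas3 at -0.32.

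The RNA sensors showed no common direction. Ddx58 (RIG-I) was 16.9 FPKM in the Het and 14.9 in the cKO library at 48 h, and at 72 h 30.9 in Het 1, 25.4 in cKO 2, 37.1 in Het 3 and 36.6 in cKO 4, with a log2 difference of -0.14 ± 0.14 (SE, adjusted p = 0.614). Ifih1 (MDA5) and Dhx58 (LGP2) stood at 0.55 ± 0.17 (SE, adjusted p = 0.253) and 0.06 ± 0.17 (SE, adjusted p = 0.882). Ifih1 ran from 2.93 to 5.69 FPKM and was higher in cKO in each pair, at 0.57 for Het 3 and cKO 4, while Dhx58 was -0.17 in the first pair and 0.28 in the other. Parp9, Parp14 and Dtx3l, ADP-ribosylation and ubiquitin ligase genes that lie side by side on the chromosome, stood close together. Parp9 was 31.7 FPKM in the Het and 28.4 in the cKO library at 48 h, and at 72 h 39.97 in Het 1, 53.3 in cKO 2, 42.8 in Het 3 and 50.6 in cKO 4. Parp14 was 32.0 FPKM in the Het and 27.6 in the cKO library at 48 h, and at 72 h 30.9 in Het 1, 46.9 in cKO 2, 44.3 in Het 3 and 54.6 in cKO 4. Dtx3l was 23.3 FPKM in the Het and 20.6 in the cKO library at 48 h, and at 72 h 29.9 in Het 1, 39.6 in cKO 2, 35.6 in Het 3 and 48.8 in cKO 4. Each was slightly lower in cKO at 48 h and higher in cKO in both 72 h pairs. Their log2 differences were 0.32 ± 0.13, 0.44 ± 0.14 and 0.42 ± 0.12, with adjusted p from 0.241 to 0.318.

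Set side by side at 72 h, the 7 GTPases had a median log2 difference of 1.02 and the 11 tested antiviral effectors one of 0.74, or 0.76 without Ifitm1 and Ifitm3. The 0.74 is the value of Ifit3, which passed the filter through cKO 2 alone, and the median of the other 10 was 0.65. The gap of 0.28 between the first medians has no test. It was 0.37 without Ifit3, a choice made after seeing the data, and it ranged from 0.080 with a pseudocount of 0.1 to 0.66 with a pseudocount of 5. The antiviral median was 0.40 without Het 1 and 0.49 with no filter on low values. The transcription factors had a median of 0.43, Parp9, Parp14 and Dtx3l one of 0.42, antigen processing 0.76 and the RNA sensors 0.06. By pair, the GTPase medians were -0.13 at 48 h, 1.23 in the first 72 h pair and 0.81 in the other. Those of all 17 antiviral effectors were 0.21, 0.72 and 0.23, those of the 11 tested were 0.21, 0.83 and 0.50, and those of all genes tested 0.00, 0.06 and 0.08. The GTPase median was the larger in both 72 h pairs and the smaller at 48 h, against all 17 effectors and against the 11, and these differences have no test.

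**Figure D5:**
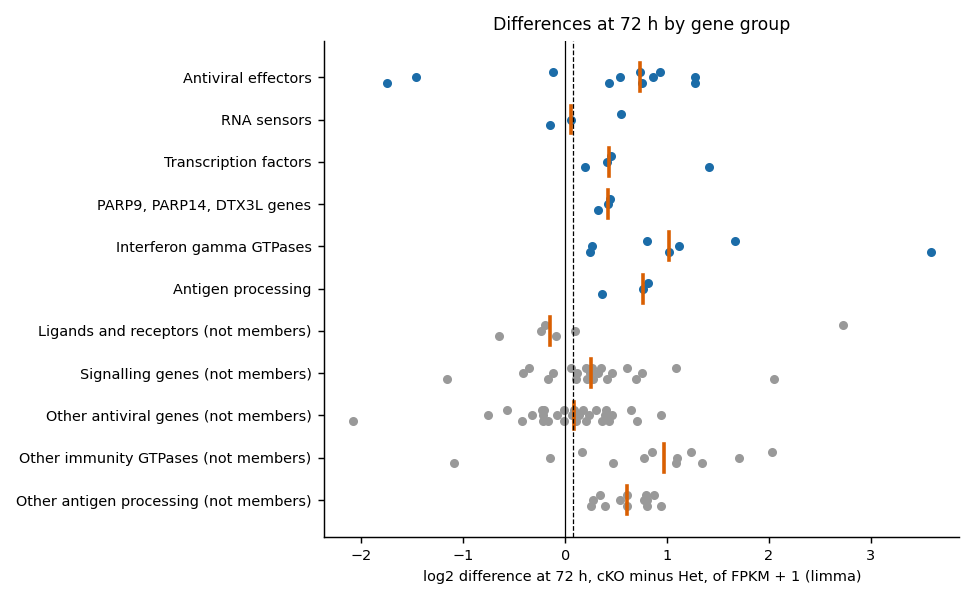
Limma log2 difference at 72 h, cKO minus Het, of FPKM + 1, with 1 point per tested gene, the 37 genes' groups in blue, other lists in grey, an orange bar at each median, and a dashed line at the median of all genes tested (0.08). Points of the GTPases among the 37 genes and of the antigen processing genes all lie right of 0. Among the other GTPases, Gbp2b and Gvin1 lie left of 0. The antiviral effectors reach from -1.75 to 1.27, and the other antiviral genes centre near the dashed line.

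At 48 h the genes were nearly level between the genotypes on log2(FPKM + 1). With 1 library each there is no test. Of the 37 genes, 0 were at least 1.5-fold higher on log2(FPKM + 1) in cKO, against 3.04% of 12394 genes, and 1, Ifit3, was at least 1.5-fold lower, against 2.02%. This scale understates ratios of low genes. In plain FPKM, cKO over Het was 1.51 for Ifit1, 1.53 for Isg15, 1.86 for Oas1a and 1.58 for Oas2. It was 2.02 for Oasl1, 1.81 for Rsad2, 1.51 for Irf7 and 0.437 for Ifit3. The share of all genes at such plain ratios was not computed. The median log2 ratio was 0.09, with 22 genes higher, against 49.2% of genes tested, and 15 lower, against 50.7%. Among the antiviral effectors 14 of 17 were higher, and among the GTPases 6 of 7 were lower. Genes lower at 48 h and higher in both 72 h pairs were 10 of the 37, against 19% of genes tested. They were all GTPases except Gbp3, all of Parp9, Parp14 and Dtx3l, and Stat2. The 48 h pair and the first 72 h pair come from the same table.

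Over both times, with 3 libraries per genotype and 12394 genes tested, none of the 31 tested genes passed, and 0% of all genes did in either direction. Unadjusted, 12 were higher, against 8.04% of all genes, and 1, Ifitm3, was lower, against 5.28%. Bst2 stood at 0.93 ± 0.25 (SE, adjusted p = 0.343), Irf1 at 1.03 ± 0.28 (SE, adjusted p = 0.343), Tap1 at 0.56 ± 0.16 (SE, adjusted p = 0.343) and Iigp1 at 2.25 ± 0.87 (SE, adjusted p = 0.372). This fit shares its 72 h libraries with the comparison above. Without Het 3 or without cKO 4, 7 genes passed, none of them among the 37.

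The change of the genotype difference between 48 h and 72 h was tested as an interaction. None of the 31 genes passed, and 0% of all genes did in either direction. Unadjusted, 10 were higher, against 3.43% of all genes, and 1, Ifitm3, was lower, against 2.28%. Iigp1 stood at 3.998 ± 0.71 (SE, adjusted p = 0.742), Irgm1 at 1.80 ± 0.33 (SE, adjusted p = 0.742), Igtp at 1.29 ± 0.27 (SE, adjusted p = 0.745) and Ifitm3 at -1.76 ± 0.32 (SE, adjusted p = 0.744).

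Between 48 h and 72 h the additive fit passed 0 of the 31 genes, against 0.0242% of all genes higher (3 genes) and 0% lower. That count was 0 without either 48 h library and 1 without Het 1 at 72 h. Unadjusted, 12 of the 31 were higher at 72 h, against 6.45% of all genes, and 0 were lower, against 4.63%. By direction 30 of 31 were higher, against 50.3% of all genes, with a median of 0.52 beside 0.00 for all genes. Isg20 stood at 1.48 ± 0.15 (SE, adjusted p = 0.147), Ifitm1 at 4.26 ± 0.54 (SE, adjusted p = 0.174), Ifitm3 at 2.27 ± 0.47 (SE, adjusted p = 0.285) and Gbp7 at 1.097 ± 0.15 (SE, adjusted p = 0.190). Within the first table the genotypes gave different counts. In Het 1, 18 of 37 genes were higher at 72 h, against 47% of genes tested, with a median log2 ratio of -0.01. In cKO 2, 36 of 37 were higher, against 55%, with a median of 0.77, and the medians of all genes were -0.03 and 0.03. The 7 GTPases had a median of 0.17 in Het 1 and 1.33 in cKO 2, all 17 antiviral effectors had -0.15 and 0.36, and the 11 tested ones -0.06 and 1.23, or -0.01 and 1.047 without Ifit3. The 2 groups were thus closer over the tested genes than over all. In Het 1 the Ifitm genes were far higher at 72 h, by 64.4-fold for Ifitm1 and 10.5-fold for Ifitm3, against 11.1-fold and 2.499-fold in cKO 2.

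Markers of other cells also differed between the libraries at 72 h. Of all 12394 genes tested, 6935 were higher in cKO in the first 72 h pair and 7696 in the other. Some of the counts by direction below lie near or under those shares. The summed level of 8 CD8 T and NK cell genes was 86.0 and 18.3 FPKM in Het 1 and Het 3 against 305 and 125 in cKO 2 and cKO 4, with 8 of 8 higher in cKO in the first pair and 6 of 8 in the other. That of 8 neutrophil genes was 38.5 and 21.5 FPKM in Het 1 and Het 3 against 344 and 75.5 in cKO 2 and cKO 4, with 8 and 2 of 8 higher. That of 8 macrophage and monocyte genes was 5.86 and 3.50 FPKM in Het 1 and Het 3 against 34.0 and 10.7 in cKO 2 and cKO 4, with 7 and 4 of 8 higher. In Het 3 and cKO 4 it was mostly Cd68, at 2.90 and 10.2 FPKM. For 6 B cell genes the sums were 160.1 and 316 FPKM in Het 1 and Het 3 against 265 and 495 in cKO 2 and cKO 4, with 6 and 4 of 6 higher. Most of it was Ighm, and the other 5 summed to 12.4 and 9.11 in Het 1 and Het 3 against 83.5 and 8.18 in cKO 2 and cKO 4. The sums of 6 plasmacytoid dendritic cell genes were 79.4 and 41.5 FPKM in Het 1 and Het 3 against 419 and 123 in cKO 2 and cKO 4, with 6 and 5 of 6 higher, most of it Irf8. Those of 6 conventional dendritic cell genes were 2.27 and 0.335 FPKM in Het 1 and Het 3 against 10.9 and 3.03 in cKO 2 and cKO 4, with 5 and 5 of 6 higher. Those of 6 erythroid genes were lower in cKO, at 27.0 and 5.89 FPKM in Het 1 and Het 3 against 24.6 and 1.45 in cKO 2 and cKO 4, with 4 and 3 of 6 higher. In the pair of Het 3 and cKO 4, S100a8, S100a9 and Lyz2 were listed at 0, Ltf made up most of the neutrophil sum, and Pax5 reached at most 0.128 FPKM. Siglech, which defines plasmacytoid dendritic cells, did not exceed 0.193 FPKM in any library. Neutrophil markers were also high in the 48 h cKO library, at a sum of 394 FPKM against 44.0 in Het. Genes of CD8 T and NK cells that effector CD4 T cells can also express differed in both pairs, Nkg7 at 29.1 against 148 and 6.48 against 89.1 FPKM. Cd8a itself was 20.3 against 39.0 and 1.011 against 2.24. Tbx21 (T-bet), from a list of 7 Th1 genes, was 2.04 against 26.7 and 2.23 against 14.8. Of the 7, 5 were higher in cKO in each pair. Stat4 was lower in both, at 16.9 against 12.8 and 18.2 against 13.7, and so was Ccl5, at 5.65 against 5.38 and 4.32 against 4.25. The part of transcripts from any of these cell types in the results was not tested. In bulk RNA, a different number of cells of a type and a different amount of RNA per cell cannot be told apart.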

How the data were processed

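RNA was sequenced in 6 libraries of sorted regulatory T cells. Per the labels' protocols, a SMART-Seq v4 low-input kit was used. The values are FPKM as the authors deposited them. The submitters' processing notes name TopHat2 2.0.12, Bowtie2 2.2.3 and HTSeq 0.6.1, and the build mm9. How strand and reads that fit several genes were treated is not given in the sources used here, so overlapping genes and near-identical copies may share reads. The labels in 1 passage give both genotypes the same alleles, so each library was grouped by its own genotype entry.

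The tables share 47347 rows, of which 278 had no Ensembl ID and were left out. Of the 47069 with one, 46488 matched a gene symbol. FPKM are not counts. With the mean transcript length and an estimated depth, 86.4% to 87.3% of low values came within 0.02 of whole fragments. Fragment numbers and their 95% Poisson intervals use that estimate and cover counting error only, and no count test was run.

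Tests used limma 3.58.1 in R 4.3.3 on log2(FPKM + 1), a scale that understates changes of low genes, with moderated variances that follow a trend, for genes averaging 1 FPKM or more. The fit at 72 h had 1 residual degree of freedom. The script was tested on simulated data with planted changes. Of the genes passing, those without a planted change were 36 of 211 for the fit at 72 h and 53 of 159 for the interaction. They were 23 of 217 for genotype over both times and 12 of 189 for time. Planted changes of 1 on the log2 scale were recovered for 76% of genes at 72 h and 15% in the interaction. The simulated noise was normal, with the moderated variances, and changes were planted only in genes averaging 5 FPKM or more. These shares therefore do not measure the power of the fits on the real libraries, where 0 genes passed for genotype at 72 h. Named genes were the GTPases, antigen processing genes, transcription factors and the 10 most abundant other members, chosen pathway genes, and up to 4 genes of each other list by p with a mean of 5 FPKM or more. One pathway gene is not reported here. The members and lists were chosen with earlier results of these data known. Promoter windows came from RefSeq (GRCm38.p6), matched by symbol, and gene neighbours from the same assembly. The bases after the start were found on sense transcripts of the gene for 26 of 33 windows. Figures used matplotlib 3.10.9.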

Additional observations from a re-analysis of the deposited data

How the results depend on the processing

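The alternatives tried were pseudocounts of 0.1 and 5, no filter or a mean of at least 5 FPKM, rescaling to TPM, quantile normalization, median centring, no table term, no variance trend and leaving out each library. At 72 h, 17 refitted genes (16 of the 37 and Ifng) kept their sign in every alternative, and none of the 37 passed in the 9 that keep all 4 libraries. Each of the 17 had the same sign in both 72 h pairs. Leaving out a library returns the ratio of the other pair, so those refits could not change a sign. Genes that differed in sign between the pairs, such as Ifit3, Isg15, Isg20 and Dhx58, were not among the 17. Leaving out a library at 72 h leaves no residual degree of freedom, so those fits have no test. With no filter on low values, 6 genes passed higher and 2 lower at 72 h, none of them among the 37. The gap between the GTPase and antiviral medians was 0.080 with a pseudocount of 0.1, 0.66 with 5, 0.53 with no filter, 0.48 with a mean of at least 5 FPKM, 0.16 after rescaling, 0.35 after quantile normalization, 0.37 without Ifit3 (chosen after seeing the data), and 0.30 to 0.40 with each library left out. The antiviral median was 0.32 with a pseudocount of 5, 0.49 with no filter and 0.40 to 0.87 with each library left out. Over both times, 7 genes passed without Het 3 or cKO 4. For time, 1 gene passed with a pseudocount of 5, 0 with no filter and 0 with no table term, and 0 to 1 without Het or cKO at 48 h or Het 1 at 72 h. With the replicate number as a block, 0 genes passed for time, against 3 without it. The labels do not say whether libraries of the same number at 48 h and 72 h come from the same animal, and with 1 library per genotype at 48 h no check of the pairing could be made. The cause of these shifts was not tested.

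Depth limits the scarce antiviral genes, whose counting intervals are wide.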
